A study of Mus musculus with 21 samples.

Results

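Methyl-CpG capture was examined at 10 mouse genes whose human counterparts lie at loci associated with rheumatoid arthritis, namely Hc, Aff3, Jazf1, Gata3, Arid5b, Ets1, Ptpn2, Ptpn22, Irf5 and Il2ra. A region counted as belonging to a gene when the gene name given to it in one of 4 deposited tables of differing regions matched exactly. This gave 44 of the 49307 listed regions, with 7 regions at 3 weeks, 21 at 8 weeks, 4 at 11 weeks and 12 after exposure to TNF. They fell at 7 of the 10 genes. No listed region carried the names Ets1, Irf5 or Il2ra, and no capture value is available here for these genes.

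The cells were synovial fibroblasts grown in culture, which line the joint, at passages 4 to 5, and the 21 libraries formed 7 groups of 3. Cells of Tg197 mice, in which a transgene for human TNF leads to arthritis, were taken at 3, 8 and 11 weeks of age, and cells of wild-type (WT) mice at the same ages served as their controls. A further group held WT cells of mice aged 8 weeks with TNF added, and its control was the WT group of that age. All mice shared the CBA x C57BL/6J background, and the design text calls the ages early, established and late. The labels give neither the dose or duration of TNF nor whether replicates came from separate animals or cultures, so p-values measure the spread between these libraries, which may be technical.

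Rheumatoid arthritis is an inflammatory joint disease in which many common variants each add a small risk, and most genes at these loci act in lymphocytes or in immune signalling. Methylation of cytosine in CpG dinucleotides is a stable mark of DNA that is linked to silencing when it covers a promoter and is commonly found inside the bodies of active genes. A methyl-CpG-binding protein pulls down methylated fragments, so the number of reads over a region rises with the amount of methylated DNA there. In bulk DNA a lower value cannot be told apart as fewer cells with methylation or fewer methylated CpGs per cell.

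The values below are normalized reads, given for each library by its position in the deposited cell. The authors listed a region because its groups differed, so each test retests a selected region, and the shares called are high over every table. Fold changes are Tg197 or TNF-exposed libraries over WT on a log2(value + 1) scale, from limma fitted to all regions of a table, and a region passed at an adjusted p (Benjamini-Hochberg over the table) under 0.05. Gained and lost are used of regions that passed with higher or lower capture than WT. TNF-exposed libraries 1 and 2 held the same values and were counted as 1 library, so that group has n = 2 and is given by libraries 1 and 3. Reads in listed regions ran from 2230884 to 2875554 per library at 3 weeks, 695108 to 1143699 at 8 weeks, 385155 to 544797 at 11 weeks and 1285306 to 1858694 in the TNF table.

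All 44 regions were classed as gene body and none as promoter. Gene body made up 87.9% of the 25390 listed regions with a gene. The regions were 500 to 1250 bp long and lay 3.7 to 472.8 kb from the start site of their gene. All coordinates are those of the deposited tables, build mm9.

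Summed over the 4 tables, 25 regions were lost, 7 gained and 12 did not pass. This sum is a tally only, since each table had its own shares, given next. It also counts overlapping regions of Hc, Arid5b and Aff3 in 2 tables that share their WT libraries. At 3 weeks all 7 regions passed, 4 gained and 3 lost, against 85.0% of all regions of that table passing, 40.3% gained and 44.7% lost. At 8 weeks 12 of 21 passed, 1 gained and 11 lost, against 54.0% of the table passing, 17.4% gained and 36.6% lost. At 11 weeks 3 of 4 passed, 1 gained and 2 lost, against 77.9% passing, 49.7% gained and 28.2% lost. After TNF 10 of 12 passed, 1 gained and 9 lost, against 93.8% passing, 29.8% gained and 64.1% lost.

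At 8 weeks 2284 of 4827 gene-body regions of the whole table were lost, which is near the 11 of 21 here. The median log2 fold of the genes' regions was 1.08 at 3 weeks, -1.22 at 8 weeks, -0.56 at 11 weeks and -1.43 after TNF. Over all regions of these tables it was -0.12, -0.22, 0.76 and -1.08, and over gene-body regions -0.09, -1.02, 0.84 and -1.18. With each library centred on its median, limma called 4 regions gained and 0 lost at 3 weeks (4 at unadjusted p under 0.05, and 4 gained and 2 lost by voom), 5 gained and 9 lost at 8 weeks, 0 gained and 3 lost at 11 weeks (3 at unadjusted p under 0.05), and 3 gained and 1 lost after TNF. The whole tables moved with it, to 6429 gained and 1143 lost at 3 weeks, 2700 gained and 3725 lost at 8 weeks, 1696 gained and 2926 lost at 11 weeks, and 5890 gained and 760 lost after TNF. Centring moved the table median to 0.14 at 3 weeks, -0.07 at 8 weeks, 0.38 at 11 weeks and -0.11 after TNF. The medians were taken over the listed regions only, all selected as differing. Centring thus shifted all folds of a table together, and calls lost or made by it cannot show which scale is right.

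The 8-week count changed with the library left out, as did the calls over the whole table. Each such fit also had fewer libraries, and the part of any single library was not tested. The count was 0 of 21 by limma without Tg197 library 1 (12 at unadjusted p under 0.05), without Tg197 library 3 (10), without WT library 1 (12) or without WT library 2 (7). It was 20 when Tg197 library 2 was left out (7 gained and 13 lost) and 9 when WT library 3 was. The first 4 of these also left 0 of the 11975 regions of the table (4382 to 6662 at unadjusted p under 0.05), and the last 2 left 8849 and 5061. A pseudocount of 0.1 left 0 of 21 and 0 of 11975 (15 and 7511 at unadjusted p under 0.05). By limma voom on recovered reads it was 12, all lost. At 11 weeks the count was 0 of 4 without Tg197 library 1 (2 at unadjusted p under 0.05), Tg197 library 3 (1) or WT library 2 (1), 2 without WT library 3, and 2 by voom on all libraries (1 gained, 1 lost). Of the 7309 regions listed at 11 weeks 10, 0 and 0 passed without Tg197 library 1, Tg197 library 3 and WT library 2 (4638 to 5186 at unadjusted p under 0.05). At 3 weeks it stayed at 7 whichever library was left out, and after TNF it ran from 7 to 10, with 10 by voom, all lost.

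Direction went with read level in every table, and most of the genes' regions lay on the same side as most regions of their level. At 3 weeks the 4 regions with a mean under 40 reads were gained and the 3 with 150 or more were lost. Of all 3-week regions 91.7% under 40 reads and 9.91% from 150 up were higher in Tg197. After TNF all 9 regions under 40 reads were lost, and 14.0% of all such regions in that table were higher in TNF-exposed cells. At 8 weeks 3 of 13 regions under 40 reads were higher in Tg197, against 21.1% of the table, 3 of 6 with 40 to 150 reads were, against 69.3%, and both regions from 150 up were higher, against 84.7%. At 11 weeks 1 of the 3 regions with 40 to 150 reads was higher in Tg197, against 32.3% of the table, and the 1 region from 150 up was lower, against 3.87% higher. The part of read level in the folds below was not tested.

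**Figure D1:**
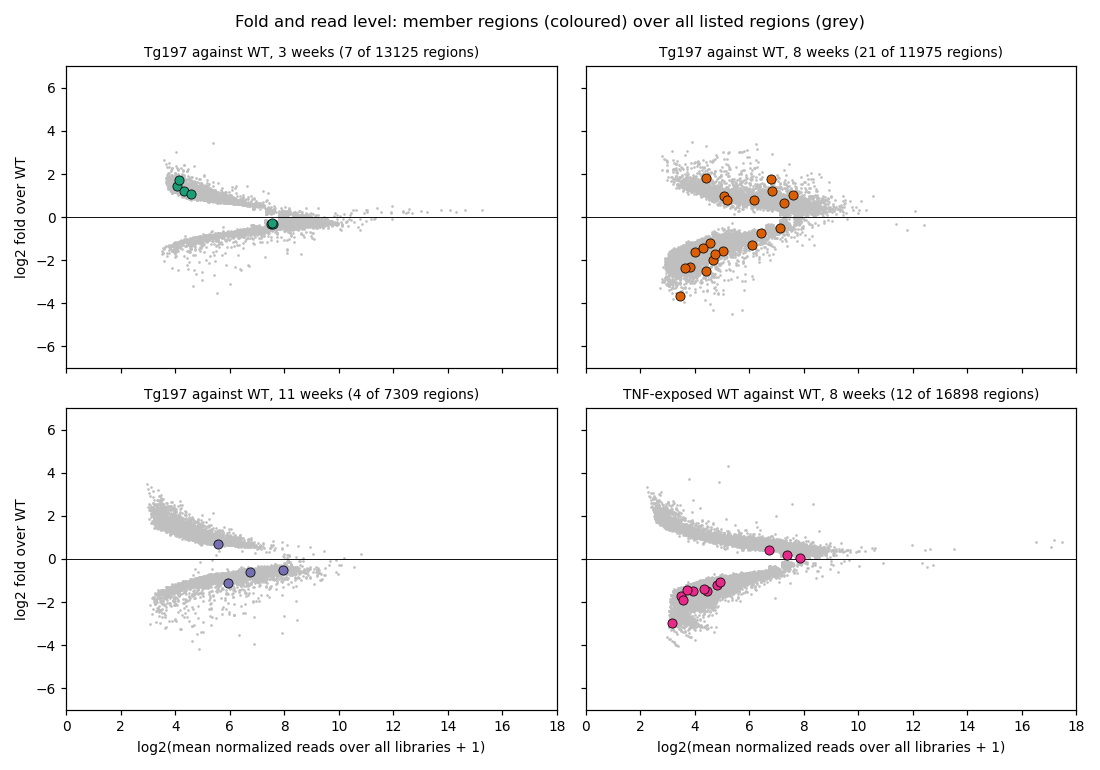
Log2 fold over WT (vertical axis) against log2 of the mean normalized reads + 1 over all libraries (horizontal axis), with 1 panel for each table. Grey points are all listed regions and coloured points the 44 regions of the susceptibility genes, which lie within the grey bands except 1 Arid5b region near 0 after TNF: gained at low and lost at high read level at 3 weeks, and lost at low read level after TNF.

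Among members with a role outside transcription, Hc encodes complement component C5, which yields the chemoattractant C5a and starts the membrane attack complex. It had 4 regions on chromosome 2, all lost, with 2 at 8 weeks and 2 after TNF, and none listed at 3 or 11 weeks. The region from 34873901 to 34874700, 42.6 kb inside the gene, held 0, 2.77 and 0 normalized reads in Tg197 cells at 8 weeks, against 24.5, 19.5 and 13.3 in WT cells. Capture was close to absent in Tg197 and present in each WT library. The log2 fold was -3.65 (SE 0.65, limma adjusted p = 0.0428). The recovered reads, 4 against 67, gave a ratio of 0.071 (95% exact interval 0.019 to 0.19, counting error only, with reads taken as independent). With such low reads the size of the fold depends on the pseudocount, and it was -5.93 (adjusted p = 0.0519) with 0.1 and -2.03 (0.0348) with 5.

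In TNF-exposed cells the listed Hc region ran from 34873901 to 34874400, inside the same stretch. It held 1.99 and 0 normalized reads, against 13.7, 11.4 and 12.3 in WT cells. The log2 fold was -2.96 (SE 0.59, limma adjusted p = 0.0109), with 2 reads against 41 and a ratio of 0.089 (0.01 to 0.342). It was -4.78 with a pseudocount of 0.1 and -1.56 with 5. Both TNF-exposed libraries again lay far below all WT libraries, which are the same libraries as in the Tg197 comparison at this age. The other Hc regions were lost at log2 folds of -1.22 at 8 weeks and -1.08 after TNF (limma adjusted p = 0.0428 and 0.0217), and without WT library 1 the p of the TNF one was 0.111. Both 8-week calls were lost when Tg197 library 1, Tg197 library 3, WT library 1 or WT library 2 was left out (adjusted p from 0.0726 to 0.134), and the weaker of the pair also without WT library 3 (0.0554) and after median centring (0.0536). The stronger TNF call held without each library in turn and after median centring (adjusted p = 0.0142). The weaker was lost without either TNF-exposed library (0.0784 and 0.0706), after centring (0.829) and without the trend (0.0555).

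Other listed regions within 1 Mb of Hc were 2 higher and 4 lower in Tg197 at 8 weeks, and 1 higher and 18 lower after TNF. The loss at Hc after TNF thus stood in a stretch of chromosome where nearly all listed regions were lower.

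The phosphatases Ptpn2 and Ptpn22 had 1 region each, both at 8 weeks and both lost. Ptpn2 encodes a phosphatase that dampens JAK-STAT signalling by cytokine receptors, and Ptpn22 encodes one that restrains signalling by the T cell receptor. At Ptpn2 (chromosome 18, 67834801 to 67835650) Tg197 cells had 10.6, 8.30 and 8.83 normalized reads, against 33.8, 34.5 and 16.6 in WT cells. The log2 fold was -1.45 (SE 0.41, limma adjusted p = 0.0428). The Tg197 libraries lay close together and below all WT libraries, of which library 3 was the lowest.

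At Ptpn22 (chromosome 3, 103716701 to 103717300) Tg197 cells had 5.30, 18.7 and 11.8 normalized reads, against 51.6, 42.7 and 24.3 in WT cells. The log2 fold was -1.73 (SE 0.52, limma adjusted p = 0.0428), and the groups did not overlap. This region begins 532 bp past the end given for the transcript, although its class is gene body. Both phosphatase calls were lost when Tg197 library 1, Tg197 library 3, WT library 1 or WT library 2 was left out (adjusted p from 0.0726 to 0.134). Other listed regions within 1 Mb were 2 higher and 8 lower at Ptpn2, and 2 higher and 6 lower at Ptpn22, against 51.5% lower over the whole table.

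**Figure D2:**
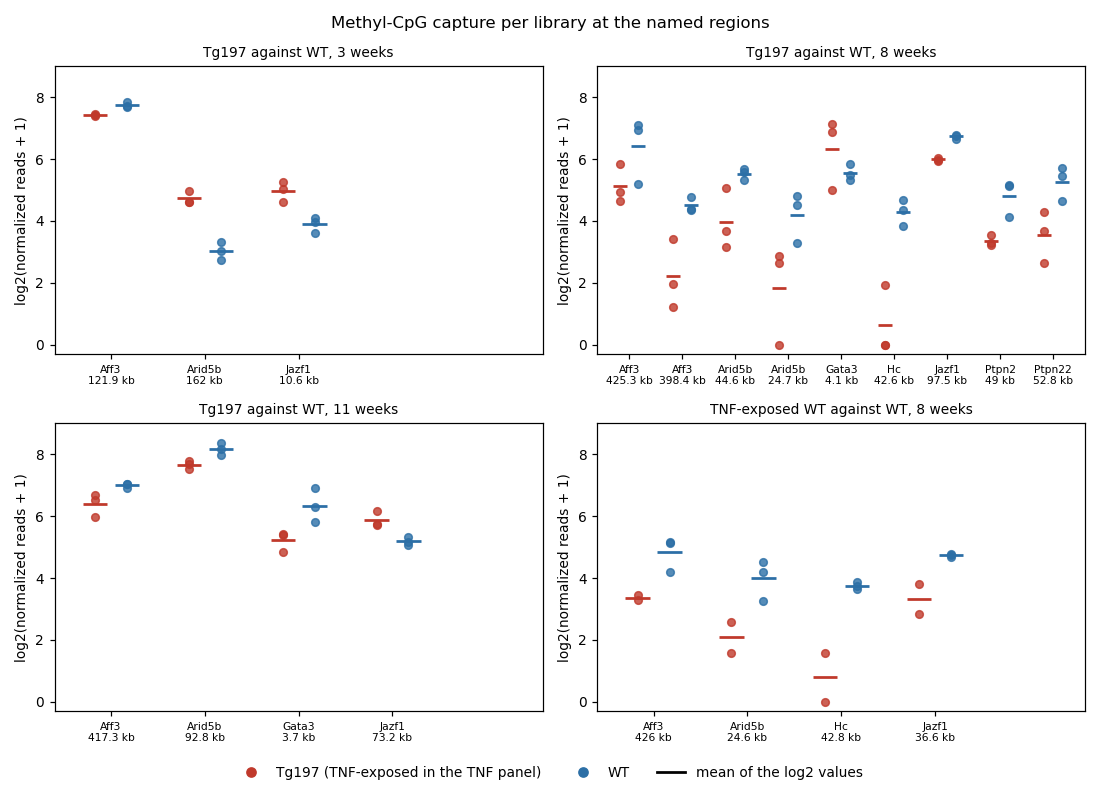
Normalized reads per library, as log2(value + 1), at the 20 regions given in full, with 1 panel for each table and each region named by its gene and distance from the start site. Red points are Tg197 or TNF-exposed libraries, blue points WT libraries, and bars the mean of the log2 values. The groups stand apart at Hc, Ptpn2 and Ptpn22. At 8 weeks they overlap at Gata3 and at the Aff3 region 425.3 kb from the start site.

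Most of the regions belonged to nuclear regulators of transcription. Aff3, a lymphoid nuclear protein of the family that joins transcription elongation complexes, had 16 regions on chromosome 1, with 4 gained, 11 lost and 1 not passing. It spans 487.6 kb and was the gene with the most regions here. The regions were listed in all 4 tables.

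At 3 weeks the Aff3 region from 38599501 to 38600250 had 171, 173 and 168 normalized reads in Tg197 cells, against 230.1, 209.9 and 206 in WT cells. It was lost at a log2 fold of -0.33 (SE 0.077, limma adjusted p = 0.0024), with all Tg197 libraries below all WT libraries. A second region of high read level was lost at a log2 fold of -0.32, and both losses failed the threshold after median centring (adjusted p = 0.407 and 0.564). The 2 regions of low read level were gained at log2 folds of 1.43 and 1.20. The larger gain, at 38602551, held 27.0, 23.6 and 18.8 normalized reads in Tg197 cells, against 6.57, 12.7 and 5.68 in WT cells. Both gains passed under each setting tried.

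At 8 weeks the 5 Aff3 regions all lay in the far part of the gene, 361.0 to 425.3 kb from the start site. The region from 38323051 to 38323700 had 1.33, 9.69 and 2.94 normalized reads in Tg197 cells, against 26.2, 19.5 and 19.9 in WT cells, a log2 fold of -2.30 (SE 0.61, limma adjusted p = 0.0428). It was depleted in all Tg197 libraries, with library 2 the least so. Further regions were lost at log2 folds of -2.49 and -0.52 and gained at 1.00. These 4 calls were lost when Tg197 library 1, Tg197 library 3, WT library 1 or WT library 2 was left out (adjusted p from 0.0726 to 0.149). The gain was lost also without Tg197 library 2 (0.0698) and by voom (0.115). The -0.52 loss was lost also without WT library 3 (0.0786), after median centring (0.213) and without the trend (0.0841).

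The fifth Aff3 region, from 38296051 to 38296950, did not pass. It had 23.9, 56.1 and 29.4 normalized reads in Tg197 cells, against 138, 123 and 35.4 in WT cells, a log2 fold of -1.29 (limma adjusted p = 0.0787). WT library 3 lay within the Tg197 range, and Tg197 library 2 was the highest of its group. The fold passed without Tg197 library 2 (adjusted p = 0.0419) or without WT library 3 (0.0326), and its p ran up to 0.224 without the others.

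At 11 weeks 1 Aff3 region (38304251 to 38304750) was listed, with 90.2, 103 and 61.2 normalized reads in Tg197 cells, against 120, 132 and 131 in WT cells. It was lost at a log2 fold of -0.61 (SE 0.24, limma adjusted p = 0.0421), with no overlap. The call was lost without Tg197 library 1 (0.0760) or 3 (0.174), without WT library 2 (0.0989) or 3 (0.0743), by voom (0.183) and without the trend (0.0728).

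After TNF 5 of 6 Aff3 regions were lost and 1 gained. The region from 38295351 to 38296200 had 9.95 and 8.68 normalized reads in TNF-exposed cells, against 34.3, 35.0 and 17.2 in WT cells, a log2 fold of -1.47 (SE 0.40, limma adjusted p = 0.0109). Both TNF-exposed libraries lay below all WT libraries. The other losses ran from -1.22 to -1.74, and the gain of 0.41 (adjusted p = 0.0209), 41.3 kb from the start site, was of higher read level and did not pass by voom (0.332) or without the trend (0.0810). None of the 5 losses passed after median centring, which raised every fold of this table, and the gain alone did. Without WT library 1 and without TNF-exposed library 3 the calls fell to 4 of 6 (adjusted p up to 0.0638), and without WT library 2 or TNF-exposed library 1 to 5 (up to 0.0859). Within 1 Mb other regions were 4 higher and 14 lower in TNF-exposed cells, against 66.2% lower over the whole table.

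**Figure D3:**
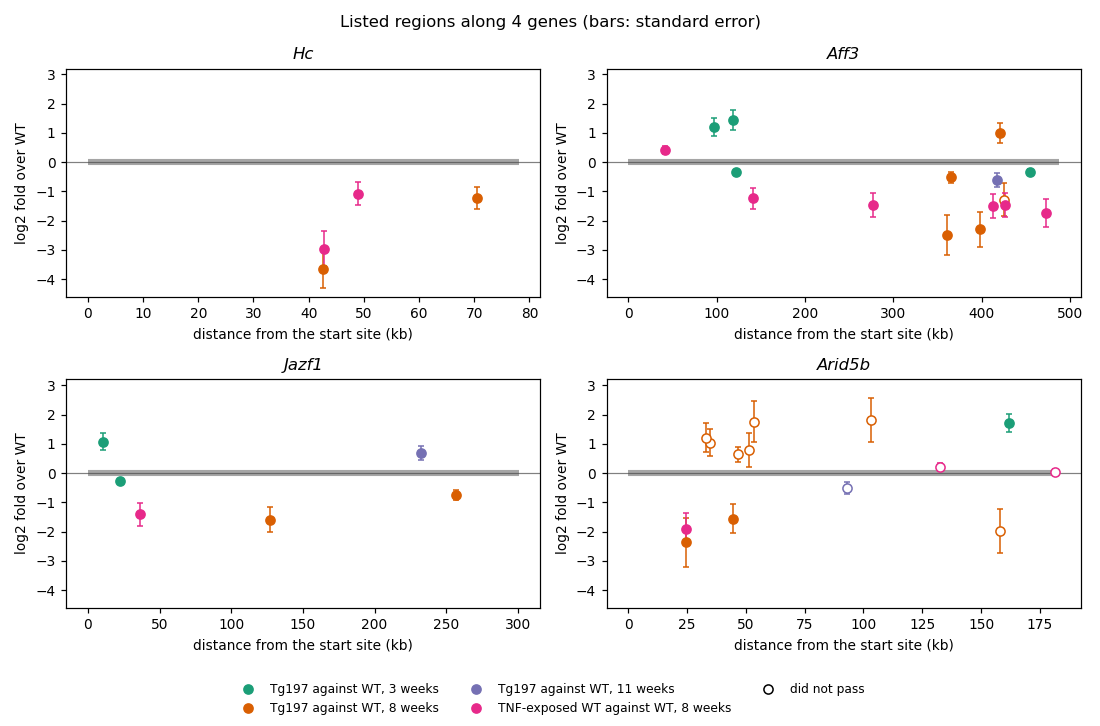
Log2 fold over WT (vertical axis) against distance from the start site in kb (horizontal axis) for the listed regions of 4 genes, with bars for the standard error, colours for the table and open points for regions that did not pass. Distances are from the start site of the longest listed transcript. The Jazf1 regions at 52761651 and 52786051, assigned to a shorter transcript, thus lie farther out than the 97.5 and 73.2 kb from their own start site. The 8-week Aff3 points lie together far inside the gene, and the 6 Arid5b regions higher in Tg197 at 8 weeks are open points, 5 of them near each other.

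Jazf1 encodes a zinc finger protein that is a partner of chromatin-modifying complexes and is also a locus for type 2 diabetes. Its 6 regions on chromosome 6 all passed, 2 gained and 4 lost, and no 2 tables listed the same region. At 3 weeks the region from 53007751 to 53008350 had 23.8, 37.7 and 31.7 normalized reads in Tg197 cells, against 11.3, 16.3 and 14.8 in WT cells. It was gained at a log2 fold of 1.08 (SE 0.28, limma adjusted p = 0.0030). A second 3-week region, with 164, 170 and 168 normalized reads in Tg197 cells against 194, 211 and 203 in WT cells, was lost at a log2 fold of -0.28 (adjusted p = 0.0039). That loss did not pass by voom (0.0789) and after centring (0.890).

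At 8 weeks the Jazf1 region from 52761651 to 52762600 had 61.0, 65.1 and 61.8 normalized reads in Tg197 cells, against 110, 100.4 and 107 in WT cells. Both groups were tight and well apart, with a log2 fold of -0.75 (SE 0.17, limma adjusted p = 0.0428). After median centring it did not pass (-0.60, adjusted p = 0.0765). The other Jazf1 region was lost at a log2 fold of -1.60. Both were lost from the calls when Tg197 library 1, Tg197 library 3, WT library 1 or WT library 2 was left out (adjusted p from 0.0726 to 0.134).

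At 11 weeks the Jazf1 region from 52786051 to 52786800 was the only gain at these genes, with 51.1, 52.7 and 70.7 normalized reads in Tg197 cells, against 39.4, 32.6 and 35.1 in WT cells. The log2 fold was 0.68 (SE 0.24, limma adjusted p = 0.0285). It did not pass without Tg197 library 1 (0.0557) or 3 (0.0909), without WT library 2 (0.0806) or 3 (0.0540), and after centring (0.275). After TNF 1 region (52981701 to 52982250) had 12.9 and 6.20 normalized reads in TNF-exposed cells, against 25.7, 26.7 and 24.6 in WT cells, and was lost at a log2 fold of -1.41 (SE 0.39, adjusted p = 0.0109). It passed without each library in turn but not after centring (0.346).

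Gata3, the transcription factor that directs T helper 2 cells and is also needed in epithelia, had the regions nearest to a start site, 4.1 kb inside the gene at 8 weeks and 3.7 kb at 11 weeks (chromosome 2). At 11 weeks the region from 9796301 to 9796850 had 40.7, 42.4 and 27.6 normalized reads in Tg197 cells, against 118, 78.2 and 55.5 in WT cells. It was lost at a log2 fold of -1.12 (SE 0.32, limma adjusted p = 0.0219), with no overlap. The call was lost when Tg197 library 1 (0.0531), Tg197 library 3 (0.0556) or WT library 2 (0.0539) was left out.

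At 8 weeks the Gata3 region from 9795801 to 9796450, which shares 150 bp with it, had 115, 31.1 and 141 normalized reads in Tg197 cells, against 44.0, 39.0 and 56.4 in WT cells. The log2 fold was 0.79 (SE 0.54, limma adjusted p = 0.207) and it did not pass. Tg197 libraries 1 and 3 lay above all WT libraries and Tg197 library 2 below all of them. Without library 2 the fold was 1.46 and passed (adjusted p = 0.0159). Other regions within 1 Mb were 3 higher and 3 lower at 8 weeks, and 5 higher and 1 lower at 11 weeks. Over the tables of these ages 48.5% and 54.2% of regions were higher.

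Arid5b encodes a DNA-binding protein that brings a histone demethylase to its targets and acts in fat and lymphoid cells. Its 14 regions on chromosome 10 held 1 gain, 3 losses and 10 that did not pass. The gain was at 3 weeks, in a region (67579051 to 67579900) with 30.2, 23.6 and 23.7 normalized reads in Tg197 cells, against 5.63, 7.24 and 9.09 in WT cells. All Tg197 libraries lay far above all WT libraries, with a log2 fold of 1.70 (SE 0.31, limma adjusted p = 0.0016). It passed under each setting tried.

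At 8 weeks Arid5b, which spans 183.1 kb, had 9 regions, a number reached by 11 of the 3959 genes in that table (0.278%). Of the 9 regions 7 did not pass. Aff3 had 5 regions at that age, a number reached by 83 genes (2.1%). Gene length was not taken into account in these shares. The losses that passed were in low-read regions. From 67696601 to 67697100 Tg197 cells had 7.95, 32.5 and 11.8 normalized reads, against 47.4, 50.2 and 38.7 in WT cells, a log2 fold of -1.56 (SE 0.50, limma adjusted p = 0.0429). From 67716451 to 67717100 Tg197 cells had 5.30, 6.23 and 0, against 22.0, 27.0 and 8.84 in WT cells, a log2 fold of -2.37 (SE 0.85, adjusted p = 0.0493). In each the groups did not overlap. Both calls were lost when any library but Tg197 library 2 was left out (adjusted p from 0.0527 to 0.151). The second did not pass either with a mean of at least 10 (0.0539) or without the trend (0.0580). The region at 67583351 was lower (log2 fold -1.97) and did not pass (0.0570), but did without Tg197 library 2 (0.0159), by voom (0.0436) and after centring (0.0468).

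The other 6 Arid5b regions at 8 weeks were higher in Tg197 by 0.64 to 1.82, and none passed (limma adjusted p from 0.0613 to 0.246). All 6 passed without Tg197 library 2, with log2 folds from 0.91 to 2.45 (adjusted p from 0.0159 to 0.0326), and 4 passed after median centring (0.0450 to 0.0457). The region from 67687501 to 67688750 had 376, 48.4 and 118 normalized reads in Tg197 cells, against 53.3, 41.2 and 24.3 in WT cells, a log2 fold of 1.75. Tg197 library 1 stood several times above the rest and library 2 inside the WT range. In all 6 regions Tg197 library 1 was the highest and library 2 the lowest of its group, and libraries 1 and 3 lay above all WT libraries. Library 2 lay within the WT range in 4, below it in 1 and above it in 1.

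That order of libraries was common in that table: of its 5811 regions higher in Tg197, 64.3% were highest in library 1, 74.4% were lowest in library 2, and in 92.1% libraries 1 and 3 both lay above all WT libraries. The part of library 2 in the Arid5b values was not tested. A 21.2 kb stretch, chosen after the values were seen, held 5 of these 6 regions and 1 of the losses. Over the 5 the mean was 288, 75.7 and 148 normalized reads in Tg197 cells, against 72.7, 69.5 and 71.2 in WT cells. Within 1 Mb other regions were 11 higher and 10 lower in Tg197, against 48.5% higher over the whole table.

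**Figure D4:**
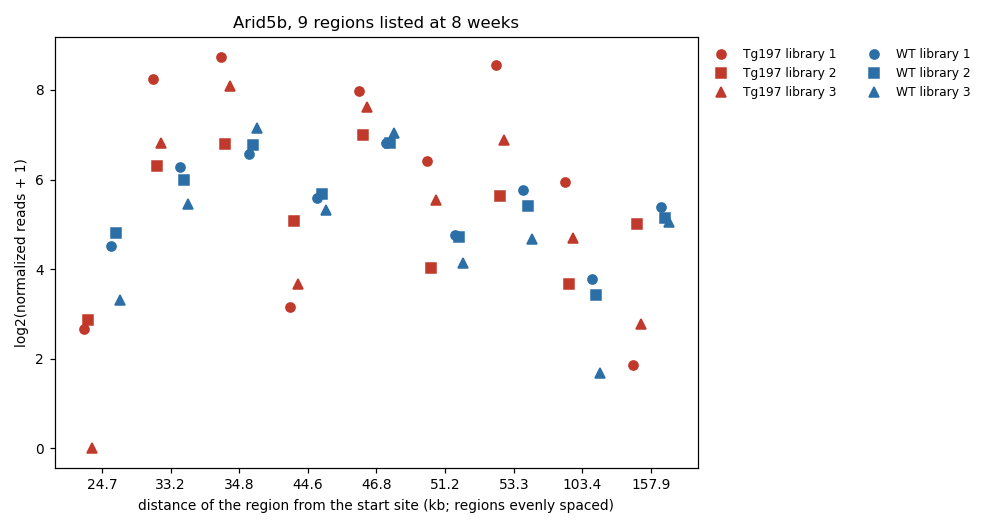
Normalized reads per library, as log2(value + 1), at the 9 Arid5b regions listed at 8 weeks, in order of distance from the start site in kb and evenly spaced. Red symbols are Tg197 libraries 1 to 3 and blue symbols WT libraries 1 to 3. In the 6 regions higher in Tg197, library 1 lies on top and library 2 falls to the level of WT in most.

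At 11 weeks 1 Arid5b region (67648351 to 67648900) had 218, 207 and 182 normalized reads in Tg197 cells, against 332, 285 and 253 in WT cells. The groups did not overlap, but the log2 fold of -0.51 (SE 0.22, limma adjusted p = 0.0525) did not pass. It passed without WT library 1 (0.0367) or 3 (0.0443) and after centring (0.0347). After TNF the region from 67716601 to 67717100 had 1.99 and 4.96 normalized reads in TNF-exposed cells, against 17.1, 22.1 and 8.60 in WT cells, a log2 fold of -1.91 (SE 0.55, adjusted p = 0.0111). It did not pass without TNF-exposed library 1 (0.0580) or after centring (0.138). The other Arid5b regions of this table, of high read level, had log2 folds of 0.20 (adjusted p = 0.150) and 0.03 (0.789). After median centring both passed as higher, at 1.17 (0.0011) and 1.00 (0.0056), whereas by voom the first did not pass (-0.09, 0.551) and the second passed as lower (-0.24, 0.0456). The second, with 237 and 226 normalized reads in TNF-exposed cells against 212, 228 and 240 in WT cells, overlapped fully, although the authors' deposited table gives it an adjusted p of 6.6e-07.

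The authors' deposited table gave an adjusted p under 0.05 to 41 of the 44 regions. The 3 others were the Aff3 region of 3 weeks with the smallest limma p (0.288 in the authors' deposited table), the Aff3 region that overlapped at 8 weeks (0.176) and the Jazf1 gain at 11 weeks (0.0873). The groups did not overlap in 7 of 7 regions at 3 weeks, 14 of 21 at 8 weeks, 4 of 4 at 11 weeks and 11 of 12 after TNF. Over all regions of these tables they did not overlap in 86.1%, 69.6%, 83.7% and 95.8%.

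Set side by side, the Tg197 and the TNF-exposed comparison at 8 weeks shared their WT libraries, with equal recovered reads at 257 of 257 regions of identical coordinates. Overlapping regions were listed for Hc, Arid5b and Aff3, which is 3 of 21 regions in Tg197 and 3 of 12 in TNF-exposed cells. The share of all regions that overlap in this way was not counted, so whether it is high at these genes is unknown. The values that follow are those of each whole listed region and not of the shared stretch alone. At Hc, where the regions share 500 bp, the ratio of reads was 0.071 in Tg197 and 0.089 in TNF-exposed cells. At Arid5b, where they also share 500 bp, the log2 fold was -2.37 in Tg197 and -1.91 in TNF-exposed cells. At Aff3, where they share 150 bp, it was -1.29 in Tg197, where it did not pass, and -1.47 in TNF-exposed cells. Since the WT values enter both folds, these pairs are not independent. Gata3, Ptpn2 and Ptpn22 had regions in the Tg197 comparison and none listed after TNF, where nothing can be said of their capture.

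**Figure D5:**
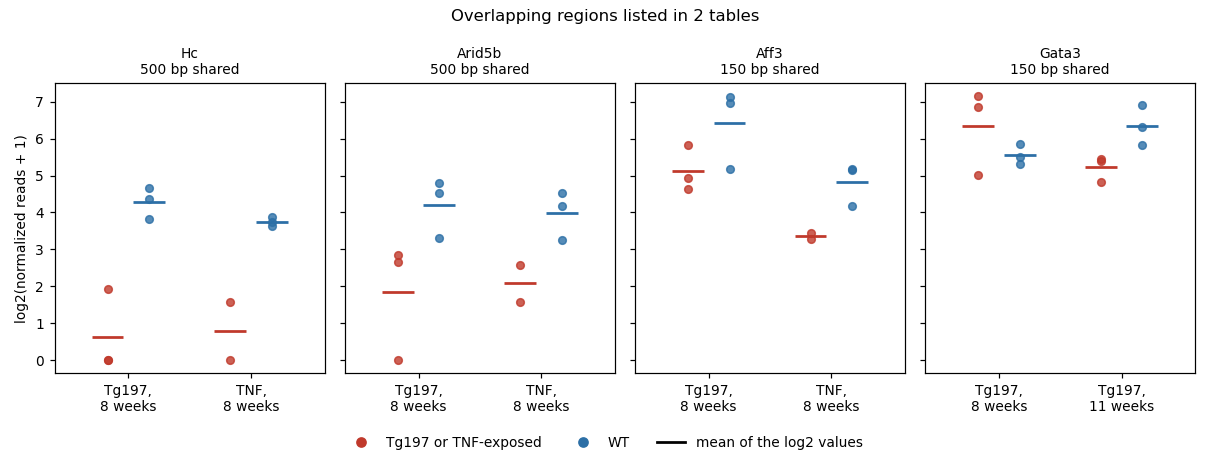
Normalized reads per library, as log2(value + 1), at the 4 pairs of overlapping regions listed in 2 tables, with the shared length above each panel. Red points are Tg197 or TNF-exposed libraries and blue points WT libraries. Hc and Arid5b lie lower in Tg197 and in TNF-exposed cells, and the Gata3 libraries of Tg197 lie lower at 11 weeks and on both sides of WT at 8 weeks.

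A list of 86 other genes at rheumatoid arthritis loci, with 48 listed at 160 regions, was counted in the same way. Of its regions 20 were gained and 16 lost of 42 at 3 weeks, 6 gained and 18 lost of 38 at 8 weeks, 15 gained and 7 lost of 26 at 11 weeks, and 9 gained and 40 lost of 54 after TNF. Over the whole tables, in that order, 40.3%, 17.4%, 49.7% and 29.8% of regions were gained and 44.7%, 36.6%, 28.2% and 64.1% lost. The median log2 folds of the list were 0.00, -1.04, 0.94 and -1.22. At 11 weeks the median of this list was above 0, as was that of the table, and 2 of the 4 regions of the genes above were lost.

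In that list the cytokine receptor kinase Tyk2 had the same region (chromosome 9, 20923351 to 20924350) listed at 3 and 11 weeks. At 3 weeks it held 75.6, 112 and 79.1 normalized reads in Tg197 cells, against 205, 154 and 247 in WT cells (log2 fold -1.17, limma adjusted p = 0.00069). At 11 weeks it held 31.1, 65.3 and 69.8 in Tg197 cells, against 133, 121 and 128 in WT cells (-1.27, adjusted p = 0.0219). Neither age showed overlap of the groups, and the ages have separate WT libraries. The 3-week call passed under each setting tried, and the 11-week call was lost without Tg197 library 1 or 3 (0.0531) or WT library 2 (0.0539).

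The Tec kinase gene was lost in 1 region at 8 weeks (-2.07) and gained in 2 other regions at 11 weeks (1.31 and 1.22). The 8-week region had 6 reads in Tg197 cells against 42 in WT cells. Its fold was -2.48 with a pseudocount of 0.1 and -1.25 with 5. The corepressor Tle3 was lost in a region each at 3 weeks (-0.57) and 8 weeks (-0.98), and Il20rb, a subunit of receptors for interleukin 20, at 3 weeks (-0.55). Tle3 and Il20rb lie on chromosome 9, as does Tyk2, so every region of this list named at 3 weeks was on that chromosome. Other listed regions near the genes of this list were not counted. Runx1, a transcription factor of blood cells, was lost at 8 weeks in Tg197 (-1.60) and in 2 other regions after TNF, 1 of them at -1.44. The other had 1 read in TNF-exposed cells against 42 in WT cells, a ratio of 0.043 (95% exact interval 0.001 to 0.255). The cell cycle kinase gene Cdk6 was lost after TNF (-2.36), with 5 reads in TNF-exposed cells against 54 in WT cells. Its fold was -2.80 with a pseudocount of 0.1 and -1.50 with 5. Each of the regions named from this list passed by limma. The 3 regions of 8 weeks did not pass when Tg197 library 1, Tg197 library 3, WT library 1 or WT library 2 was left out (adjusted p from 0.0726 to 0.134) or with a pseudocount of 0.1 (0.0519), and Tle3 at that age also not after centring (0.0544). Those of Tec at 11 weeks did not pass without Tg197 library 1 or 3 (0.0531) or WT library 2 (0.0539), and the Runx1 loss of -1.44 did not after centring (0.241).

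Capture measures DNA and not expression, so the labelled cell type could not be checked by whether its markers were expressed. Regions were listed at 8 of 19 fibroblast markers (13 regions), 12 of 19 lymphocyte markers (44) and 7 of 15 macrophage markers (9). Lymphocyte markers gave 6 gained and 4 lost of 11 at 3 weeks, 1 gained and 5 lost of 10 at 8 weeks, 4 gained and 3 lost of 9 at 11 weeks, and 3 gained and 10 lost of 14 after TNF. Fibroblast markers gave 3 gained and 3 lost of 7 at 3 weeks, 1 lost of 1 at 8 weeks, 1 gained of 1 at 11 weeks and 4 lost of 4 after TNF. Macrophage markers gave 3 gained and 1 lost of 4, 1 lost of 1, 1 gained and 2 lost of 3, and 1 lost of 1 in the same order. Over the whole tables, again in that order, 40.3%, 17.4%, 49.7% and 29.8% of regions were gained and 44.7%, 36.6%, 28.2% and 64.1% lost. The part of other cell types in the values of the susceptibility genes was not tested.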

How the data were processed

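Methylated DNA of 21 samples was enriched with a methyl-CpG-binding protein, eluted at high and low salt, and sequenced as paired reads of 100 bp, per the labels' protocols. The submitters' processing notes name mm9 as the build and TopHat, TopHat2, BWA, Cuffdiff and Cufflinks as tools, without their roles. Which program compared the groups is not given in the sources used here. Per the file headers, signal columns hold the authors' group means of normalized reads, and the values of single libraries are packed in 1 cell. The log2 fold and the p-value and adjusted p-value of a region and of its best window were computed by the authors, per the file headers. No deposited window p-value is above 0.0001, so every region is selected.

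Packed values were split, with 0 columns left out. Whole reads came back within 0.1 for 99.98% to 100% of values. Of those up to 20 reads between 57.0% and 68.4% were even, so both ends of a fragment may be counted. The exact intervals hold counting error alone and take reads, pooled over the libraries of a group, as independent. They may therefore be too narrow even for counting error. Depth outside the listed regions is unknown. Identical TNF-exposed libraries 1 and 2 entered as 1. limma 3.58.1 (R 4.3.3) with a trend on the mean used log2(value + 1) of all regions of a table. It had no filter on low values and an adjusted p threshold of 0.05. The fit was also run on simulated data in which most regions were unchanged, unlike the selected regions here, so that run does not bear on these calls. Other steps used Python 3.11.15, pandas 2.3.3, NumPy 2.4.6, SciPy 1.17.1 and matplotlib 3.10.9. Tables were normalized separately, so folds were tested within a table, and 1 difference between folds of 2 tables (Gata3) was tested across them. A single value for 3 against 3 libraries cannot go below p = 0.1 in an exact permutation test.

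Regions given in full are the one with the smallest limma p of each gene and table and those that overlap by at least 1 bp a region of the same gene in another table, plus up to 3 regions per table of the list of other susceptibility genes with the smallest adjusted p. The further Aff3, Arid5b and Jazf1 values were chosen after they were seen. The genes, lists and rules were chosen with earlier results of these data known. Alternatives were pseudocounts of 0.1 and 5, a mean of at least 10, median centring, limma voom on recovered reads, no trend, and leaving out each library.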

Additional observations from a re-analysis of the deposited data

Results flagged for a closer look

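Overlapping Gata3 regions had folds of opposite sign at different ages. Tg197 over WT was 0.79 at 8 weeks and -1.12 at 11 weeks on the log2 scale, a difference of 1.91 (exact permutation test over libraries, two-sided p = 0.04 over 400 regroupings, where the smallest possible is 0.005). The regions share 150 bp and their tables were normalized separately, and the 8-week fold did not pass (limma adjusted p = 0.207). Not every Tg197 library moved the opposite way, since library 2 lay below all WT libraries at 8 weeks. The pair was picked for its opposite signs after its values were seen, so this p does not show that the change differed between ages.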

How the results depend on the processing

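Some counts of regions that passed moved by over 1.5 times. Median centring gave 4 against 7 at 3 weeks and 4 against 10 after TNF, and a pseudocount of 0.1 gave 0 against 12 at 8 weeks (15 at unadjusted p under 0.05, 12 by voom). Leaving out each library gave 7 at 3 weeks, 0 to 20 at 8 weeks, 0 to 4 at 11 weeks and 7 to 10 after TNF. The 11-week count was 2 by voom. The sign of the fold turned in TNF-exposed cells at Arid5b 67559651, which was 0.03 and became -0.24 by voom and ran from -0.01 to 0.07 with a library left out, and at Arid5b 67608801, which was 0.20 and became -0.09 by voom. Other folds kept their sign. The cause of these moves was not tested, apart from fewer libraries where 1 was left out. The Hc region after TNF has no value with a mean of at least 10, since it lies below. No paired analysis was possible because the values in a packed cell carry no replicate number. Depth limits the low-read regions most: a few reads decide their folds, as at Hc.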
